A study of Mus musculus with 11 samples.

Results

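Crisp1, Lcn5, Lcn8, Lcn9, Adam7, Cst8, Ros1, Rnase9 and Rnase10 are genes of the epididymis, the coiled duct that receives sperm from the testis. Their signals were read on every array of 3 testis regions to see whether epididymal tissue lay in the pieces that were dissected. Members were the probe sets whose only annotated gene symbol is 1 of these 9 names. Of the 9 genes, 6 had such a probe set, with 1 probe set each, among 45101 probe sets for 18194 genes with a probe set of their own. Crisp1, Cst8 and Rnase9 had none in the annotation used and were not analysed here.

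Sperm and fluid leave the seminiferous tubules through the rete testis, pass the efferent ducts and enter the initial segment of the epididymis. The epithelium of the initial segment and the caput, the head of the epididymis, secretes proteins that coat maturing sperm, among them lipocalins, members of the ribonuclease A family, cystatins and beta-defensins. Many of these genes are transcribed at high levels in that epithelium, and several need fluid from the testis and androgen to stay on.

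The arrays came from W/Wv mice aged 7 weeks, which carry 2 mutant alleles of Kit and whose tubules lack most germ cells. All 3 groups share this genotype: the rete testis (RT, 3 arrays), the Sertoli valve (SV, 4 arrays), the end piece of the tubule that opens into the rete, and the convoluted seminiferous tubules (ST, 4 arrays). Each array held RNA pooled from 20 testes, taken by hand after trypan blue had been injected through the efferent ducts, and SV fragments were cut next to the rete and may carry some of its cells. In bulk pieces such as these, fewer cells of a type and less RNA per cell cannot be told apart.

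Values are MAS5.0 signals on a linear scale, scaled on each array to a trimmed mean of 500.0, with a median signal of 65.8 to 110.4 over arrays. Present or absent calls were not used here, so a description of low signal was taken from 44 probe sets of olfactory receptor genes, whose 95th percentile lay between 42.9 and 77.4 over the 11 arrays. Signals under that level are called low below, which is not a statement that a transcript was absent. No epididymis array was used here as a positive control, so the signal these probe sets give in epididymal tissue is not known from these data.

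Of the 6 epididymal secretory genes, none passed the test in any comparison, and 5 of the 6 were at most 1.62 times the olfactory receptor level on every array. Adam7 was the exception on 2 of the 11 arrays, RT replicates 1 and 2. Over the 66 values of the 6 genes, 10 lay above the olfactory receptor level of their array, which were 6 of 18 in RT, 3 of 24 in SV and 1 of 24 in ST. Rnase10 (2 RT and 2 SV arrays) and Lcn8 (2 RT, 1 SV and 1 ST array) were above it on 4 arrays each, Lcn5, Lcn9 and Ros1 on none, and no gene on every array. The level differed between arrays, at 43.1 on RT replicate 2 and 77.4 on ST replicate 2. Lcn8 at 43.6 and Rnase10 at 45.0 on RT replicate 2 thus counted, while Rnase10 at 58.6 on ST replicate 2 did not. The counts by region therefore also follow the level of each array. On every array the median of all probe sets lay above that level.

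**Figure D1:**
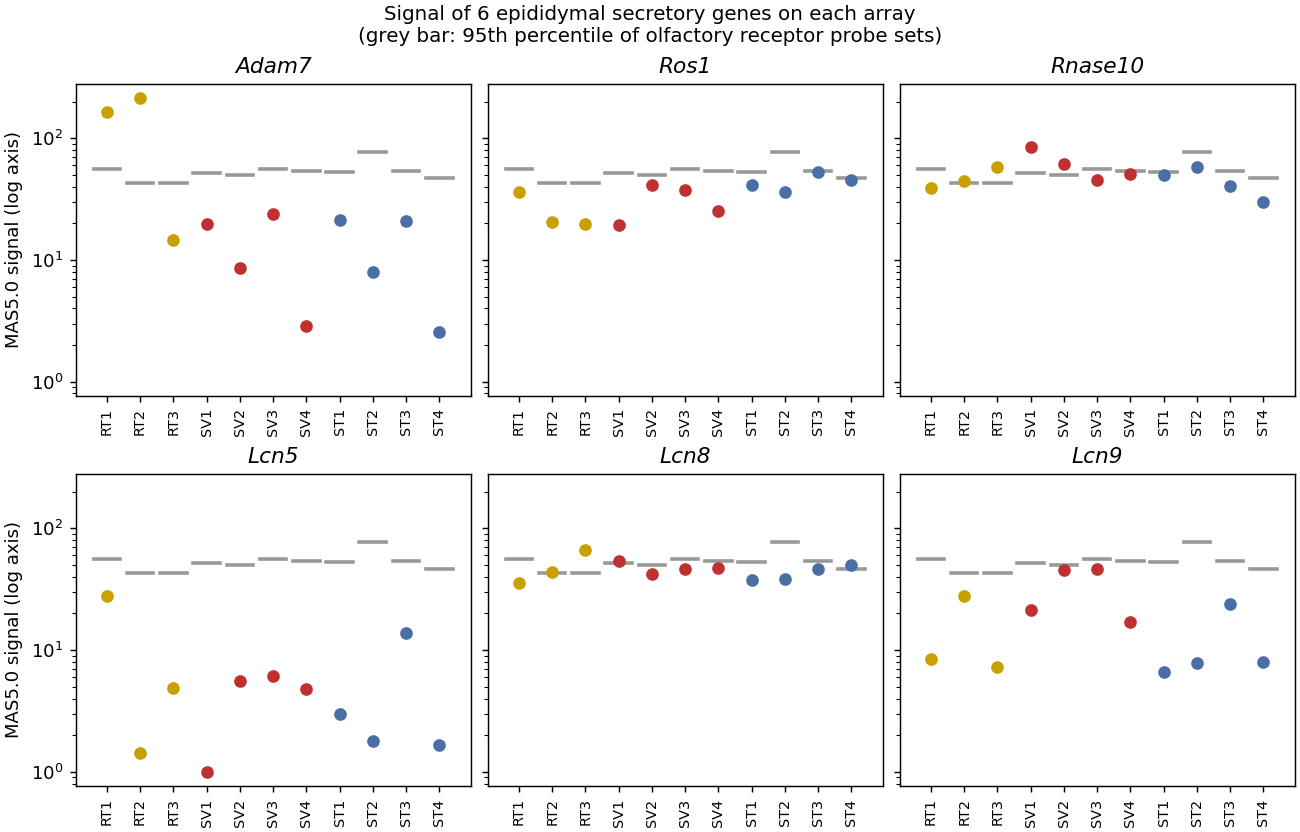
MAS5.0 signal (log10 axis) of the 6 measured epididymal secretory genes on each of the 3 RT, 4 SV and 4 ST arrays, with 1 point per array, and a grey bar for the 95th percentile of the olfactory receptor probe sets on the same array. Adam7 stands at 166 and 214 on RT replicates 1 and 2 and at 14.7 on RT replicate 3, and the other genes reach at most 1.62 times the grey bar of their array (Rnase10 on SV replicate 1, at 84.6 against 52.3).

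In RT against ST, 0 of the 6 genes were called higher by limma (Benjamini-Hochberg adjusted p under 0.05 and over 2-fold), where 10.2% of all probe sets were. None was called lower, against 5.48% of all probe sets. In SV against ST, 0 of 6 were called higher and 0 lower, against 1.50% and 0.0665% of all probe sets. In SV against RT, 0 of 6 were called higher and 0 lower, against 2.95% and 4.99%. With so few genes, counts of 0 lie near these shares in every comparison. For none of the 6 genes did all RT arrays lie above all ST arrays, or all SV arrays above all ST arrays, which held for 20.1% and 4.64% of all probe sets. At an unadjusted limma p under 0.05, Adam7 differed in RT against ST and in SV against RT, and Lcn9 in SV against ST. By the methods' t-test with its unadjusted threshold the counts were 0, 1 and 0 in RT against ST, SV against ST and SV against RT, and after Benjamini-Hochberg adjustment 0 in each. The median log2 fold change of the 6 genes was 0.19 in RT against ST and 0.13 in SV against ST, beside 0.13 and 0.00 over all probe sets.

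Adam7 encodes a membrane protein of the ADAM family that is made in the caput epididymis and passed to sperm. Its RT signals were 166, 214 and 14.7 on replicates 1, 2 and 3. Its SV signals were 19.7, 8.53, 23.8 and 2.88, and its ST signals 21.2, 7.99, 21.0 and 2.54. RT replicates 1 and 2 were thus high and lay above the olfactory receptor level, while RT replicate 3 lay below it, inside the range of the SV and ST arrays. Against the olfactory receptor level of RT replicate 3, taken in place of its own low signal, RT replicates 1 and 2 were at least 3.86-fold and 4.98-fold higher. The RT mean was 131 ± 104 (SD, n = 3), the SV mean 13.7 ± 9.69 (SD, n = 4) and the ST mean 13.2 ± 9.40 (SD, n = 4).

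The log2 fold change of Adam7 in RT against ST was 3.04 ± 1.08 (SE; 95% interval 0.72 to 5.37), with a limma adjusted p of 0.0544, which misses the threshold. In SV against RT it was -2.96 ± 1.08 (adjusted p = 0.0904, limma), and in SV against ST 0.09 ± 1.00, with an interval from -2.06 to 2.24 (adjusted p = 0.987, limma). The call in RT against ST turned on single arrays. Without RT replicate 3 the value was 4.27 (adjusted p = 0.00870, limma), without SV replicate 4 it was 3.04 (adjusted p = 0.0435), and without RT replicate 1 or 2 it was 2.52 (adjusted p = 0.201) or 2.34 (adjusted p = 0.226).

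Replicates 1 and 2 of all 3 regions together gave Adam7 a log2 fold change of 3.86 in RT against ST (adjusted p = 0.00434, limma). That choice keeps the RT arrays on which Adam7 was high and leaves out RT replicate 3, so it is not separate support. Replicates 3 and 4 hold 1 RT array, RT replicate 3, and gave 1.01, which restates that array. With replicates 1 and 2 against 3 and 4 as a block the value was 2.80 and passed the threshold (adjusted p = 0.0405, limma). With a floor of 32 on the signal it was 1.70 and passed as well (adjusted p = 0.0490, limma). The floor set Adam7 to 32 on every array but RT replicates 1 and 2, which left no spread in SV or ST. The SE was 0.54 with the floor and 1.08 without it, so this pass follows from the floor.

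Ros1 encodes a receptor tyrosine kinase that the initial segment needs to differentiate. Its signals were 36.4, 20.7 and 19.7 in RT, 19.4, 41.2, 37.8 and 25.4 in SV, and 41.2, 36.2, 52.9 and 45.6 in ST. All were low, and the ST arrays overlapped both other groups. On the log2 scale RT differed from ST by -0.83 ± 0.45 (95% interval -1.80 to 0.15, adjusted p = 0.220, limma) and -0.56 ± 0.42 in SV against ST (interval -1.46 to 0.34, adjusted p = 0.661).

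Rnase10 encodes a secreted protein of the ribonuclease A family made in the initial segment, and its gene lies next to Rnase9 in the annotation. Its signals were 39.2, 45.0 and 58.7 in RT, 84.6, 61.9, 45.7 and 50.7 in SV, and 50.4, 58.6, 41.0 and 29.8 in ST. The 3 groups overlapped, with the highest array in SV and the lowest in ST. RT exceeded ST by 0.11 ± 0.39 on the log2 scale (95% interval -0.73 to 0.94, adjusted p = 0.885, limma) and 0.44 ± 0.36 in SV against ST (interval -0.33 to 1.21, adjusted p = 0.698).

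The lipocalins Lcn5, Lcn8 and Lcn9 are small secreted carriers of hydrophobic ligands. Lcn5 binds retinoic acid in the epididymal lumen, and Lcn8 is its neighbour in the gene order. Lcn5 signals were 27.8, 1.43 and 4.92 in RT, 1.00, 5.62, 6.15 and 4.77 in SV, and 2.98, 1.78, 13.9 and 1.66 in ST. RT replicate 1 was the highest array, still under the olfactory receptor level, and the groups overlapped. RT exceeded ST by 0.80 ± 1.11 on the log2 scale (95% interval -1.60 to 3.21, adjusted p = 0.672, limma), and it was -0.33 without RT replicate 1.

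Lcn8 gave 35.4, 43.6 and 66.3 in RT, 53.6, 42.1, 46.8 and 47.7 in SV, and 37.6, 38.6, 46.5 and 49.7 in ST. The groups overlapped, and RT replicate 3 was the highest array. In RT against ST the log2 fold change was 0.13 ± 0.36 (95% interval -0.66 to 0.91, adjusted p = 0.850, limma). In SV against ST it was 0.15 ± 0.34 (interval -0.58 to 0.87, adjusted p = 0.921).

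Lcn9 gave 8.40, 27.8 and 7.26 in RT, 21.2, 45.2, 46.4 and 17.1 in SV, and 6.60, 7.87, 24.0 and 8.06 in ST. The SV arrays were the higher ones, but SV replicates 1 and 4 fell below ST replicate 3. The log2 fold change in SV against ST was 1.56 ± 0.65 (95% interval 0.15 to 2.97, adjusted p = 0.312, limma), and in RT against ST 0.25 ± 0.71 (interval -1.27 to 1.78, adjusted p = 0.848). For Lcn8, Lcn9 and Rnase10 the sign of the RT against ST value turned when the arrays were centred on their medians or quantile normalized.

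**Figure D2:**
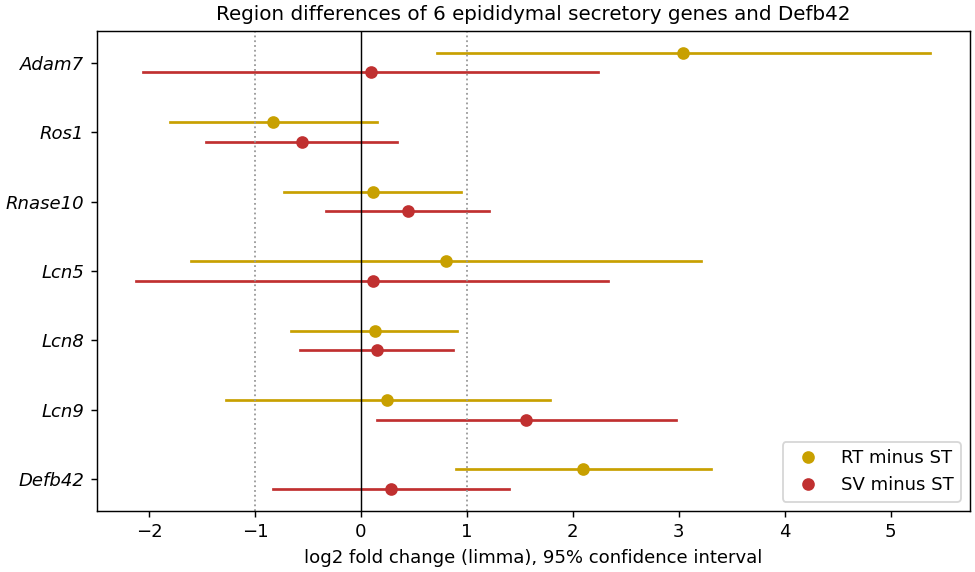
Log2 fold change with its 95% interval in RT against ST and SV against ST. Drawn are the 6 measured epididymal secretory genes and Defb42, a beta-defensin from a wider epididymal list. Among the 6, Adam7 is the only gene whose interval lies above 0 in RT against ST (0.72 to 5.37). Lcn9 is the only one of the 6 above 0 in SV against ST (0.15 to 2.97). Neither passed after adjustment. Defb42 also lies above 0 in RT against ST (0.90 to 3.30) and was called there.

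A wider list of 44 epididymal genes, with lipocalins, defensins, cystatins, serpins and secreted enzymes, had 19 genes with a probe set. In RT against ST, 1 of the 19 was called higher and 1 lower, where 10.2% and 5.48% of all probe sets were. Neither count exceeded its share. In SV against ST none was called by limma, against 1.50% higher and 0.0665% lower over all probe sets, with 1 at an unadjusted p under 0.05. That gene was Ces5a, a secreted carboxylesterase named here after its values were seen, which passed the adjusted threshold (adjusted p = 0.0102, limma) but, at a log2 fold change of 0.68, not the 2-fold one. Ces5a gave 796 to 938 in SV and 503 to 639 in ST, so its groups did not overlap, and its other 2 probe sets gave 0.07 and 0.36 with low signals. The median log2 fold change of the 19 genes was 0.02 in RT and -0.20 in SV against ST. On no array did 14 of the 19 rise above the olfactory receptor level, and 42 of their 209 values (20.1%) did. By region, 22.8% of the RT values, 19.7% of the SV values and 18.4% of the ST values did so.

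Defb42, a beta-defensin of the epididymis, was the gene called higher. Its RT signals were 188, 251 and 51.9, its SV signals 34.3, 55.0, 37.6 and 30.1, and its ST signals 31.5, 36.9, 51.4 and 16.3. As for Adam7, RT replicates 1 and 2 were high and RT replicate 3 was the low RT array. Unlike Adam7, Defb42 on RT replicate 3 lay above the olfactory receptor level of that array (42.9). It lay just above the highest ST array and below the highest SV array. RT exceeded ST by 2.10 ± 0.56 on the log2 scale (adjusted p = 0.0130, limma) and 0.28 in SV against ST (adjusted p = 0.898). Without RT replicate 1 or 2 the call was lost, at 1.86 (adjusted p = 0.0716) and 1.65 (adjusted p = 0.0866), and without RT replicate 3 the value was 2.79 (adjusted p = 0.00147).

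Cst12, a cystatin made by Sertoli cells as well as in the epididymis, was the gene called lower. Its RT signals of 6644, 9537 and 13930 all lay below the ST signals of 24450 to 33280, a log2 fold change of -1.54 ± 0.21 (adjusted p = 1.40e-04, limma). Cst12 is also on the list of Sertoli cell genes, 11 of 17 of which were called lower in RT, where 5.48% of all probe sets were. Among 5 measured regulators of the initial segment, Etv5, an ETS factor that Sertoli cells also express, was called lower in RT (log2 fold change -1.50 ± 0.17, adjusted p = 2.77e-05, limma) and none was called higher. Etv5 gave 1209, 984 and 1477 in RT and 2992 to 4158 in ST.

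Genes of the efferent duct epithelium, which joins the rete to the epididymis, were higher in RT than in ST where the epididymal secretory genes were not called. Of 17 measured, 11 were called higher and none lower, with a median log2 fold change of 3.70 over the list beside 0.13 over all probe sets. Foxj1, a factor of motile cilia, was higher by 6.10, Cftr, a chloride channel, by 5.82, Aqp1, a water channel, by 5.71, and Slc26a3, an anion exchanger, by 4.84 on the log2 scale. All 4 were below the olfactory receptor level on every ST array, so the sizes of these changes rest on low signals, and with a floor of 32 they were 5.61, 5.40, 5.71 and 3.73. In SV against ST 4 of the 17 were called higher, where 1.50% of all probe sets were. These were Foxj1 (2.95), Aqp1 (2.18), Cftr (2.14) and Car2 (2.08). The rete epithelium shares some of these genes, so the list does not separate efferent duct from rete.

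RT replicate 3 was also the low RT array for many of these genes. Foxj1 gave 2264, 2399 and 732 on RT replicates 1, 2 and 3, Aqp1 gave 4144, 3109 and 878, and Slc26a3 gave 893, 791 and 114. Cftr did not share this drop on the probe set used, at 1441, 1255 and 1432. Its other probe set gave 33.9, 33.0 and 15.2, all under the olfactory receptor level. RT replicates 1 and 2 were each over 2 times RT replicate 3 for 9 of 17 efferent duct genes, 3 of 17 genes of the rete epithelium, 3 of 19 other epididymal genes and, among the 6 epididymal secretory genes, for Adam7. The same held for 6.11% of all probe sets and for 10.1% of the 4607 called higher in RT, and RT replicate 3 was over 2 times both others for 6.67% of all probe sets. Unlike Adam7, Slc26a3 stayed above the SV and ST arrays on RT replicate 3, where ST reached 34.5 and SV 55.6.

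**Figure D3:**
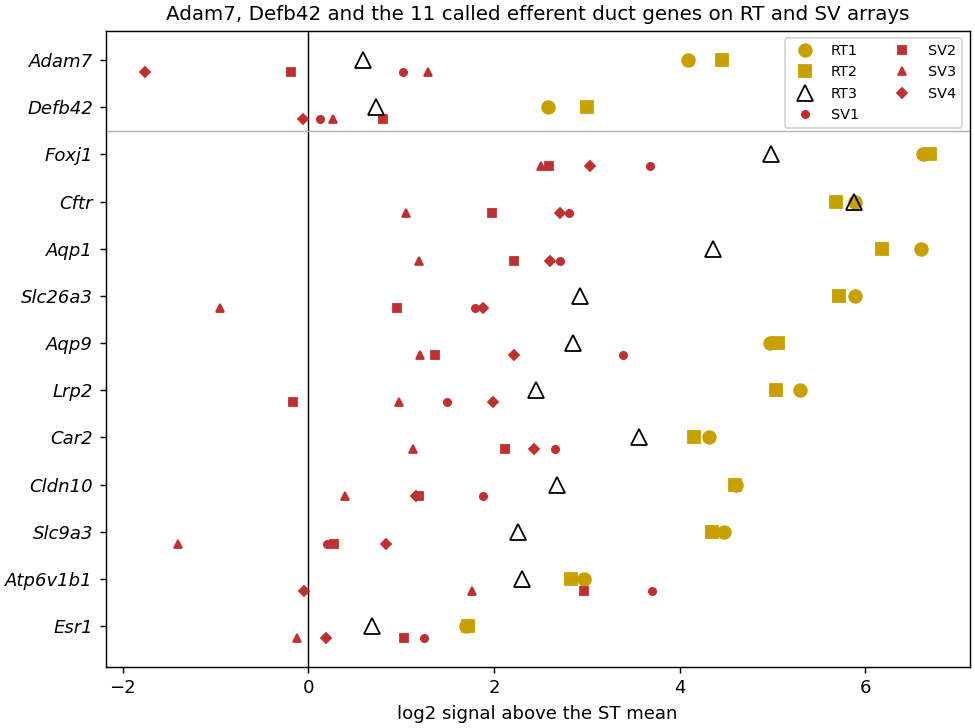
Log2 signal above the ST mean on each RT and SV array for Adam7, Defb42 and the 11 efferent duct genes called higher in RT, with 1 marker per array. RT replicate 3 (open triangle) sits below RT replicates 1 and 2 for every gene drawn except Cftr, where its signal of 1432 lies between theirs. Each gene is drawn by 1 probe set.

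The lists were also followed by their median on each array. Above the ST mean on the log2 scale, the efferent duct list stood at 4.32, 4.15 and 2.31 on RT replicates 1, 2 and 3, the rete epithelium list at 6.57, 6.31 and 5.05, and the Sertoli cell list at -2.07, -1.78 and -1.0. The 6 epididymal secretory genes stood at -0.20, 0.04 and 0.50, and the other epididymal genes at -0.03, -0.04 and 0.22. The median of neither epididymal list was higher on RT replicates 1 and 2 than on RT replicate 3. In these lists 3 of 6 and 14 of 19 genes were above the olfactory receptor level on no array. Their medians thus rest largely on low signals and cannot show a rise of single genes such as Adam7 or Defb42. The part that efferent duct tissue or unequal dissection played in the Adam7 signals was not tested.

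**Figure D4:**
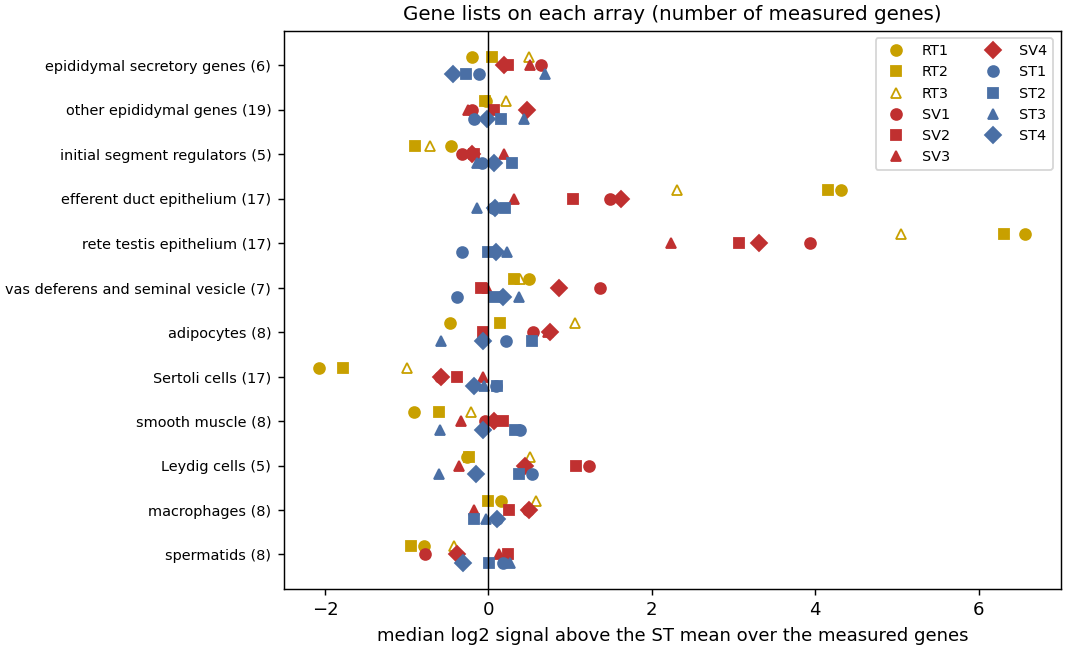
For each array, the median over a list of the log2 signal less its ST mean, for the epididymal secretory genes and for other gene lists. The rete and efferent duct lists are raised on all 3 RT arrays (5.05 to 6.57 and 2.31 to 4.32), and the epididymal secretory genes lie between -0.20 and 0.50 there.

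Lists for other cells that the pieces could hold were counted in RT against ST. The rete epithelium list had 13 of 17 genes called higher and 1 lower, where 10.2% and 5.48% of all probe sets were. Whether these genes tell rete from efferent duct or epididymis was not tested. For smooth muscle 1 of 8 was called higher and 3 lower, for macrophages 1 of 8 higher, and for spermatids 2 of 8 lower. For adipocytes (8 measured) and Leydig cells (5 measured) limma called none, with 1 adipocyte gene and 0 Leydig cell genes at an unadjusted p under 0.05.

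The genes whose log2 signals ran most like Adam7 over the 11 arrays were ranked by Pearson correlation among 18193 genes, a choice made after the Adam7 values were seen. The highest were 2610028H24Rik (r = 0.942), Acbd4 (0.934) and Rnf128 (0.921). 2610028H24Rik gave 133, 148 and 12.6 in RT and at most 25.9 elsewhere. Defb42 stood at rank 16 (0.895) and Slc26a3 at rank 1471 (0.638). All points come from the same 11 arrays and share their scaling.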

How the data were processed

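RNA from RT, SV and ST pieces was hybridised to Affymetrix Mouse Genome 430 2.0 arrays. The authors deposited MAS5.0 signal intensity per probe set, on a linear scale, scaled on each array to a 2% trimmed mean of 500.0. The version of the software that computed the signals was not given in the sources used here. Intensities were read as deposited, without a filter or added constant, and log2 transformed. The precision of a value is limited by the number of arrays. Groups and replicate numbers came from the sample titles. Replicates are separate pools of 20 testes, and whether pools share animals is not stated, so p-values measure the spread between these pools.

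Probe sets were named through the platform annotation: 34958 carry 1 gene symbol, 932 several and 9211 are not listed there. Region effects were fitted with limma 3.58.1 in R 4.3.3 on all 11 arrays and 45101 probe sets (lmFit, eBayes with trend). A call needed a Benjamini-Hochberg adjusted p under 0.05 and a change over 2-fold, and for a gene with several probe sets 1 represented it in the lists. The script was tested on simulated data. The 6 genes were set beside 11 other gene lists. The genes, and those lists, were chosen with earlier results of these data known. Named were every member, up to 4 of the most changed called genes of a list, every called gene of the other epididymal list, and the genes most like a called member. Since no member was called, the last part gave none, and likeness to Adam7 was added after its values were seen. Alternatives covered scaling, floors, filters, blocks, the methods' t-test and leaving out each array. Gene order came from the RefSeq table of GRCm38.p6. Figures were drawn with matplotlib 3.10.9.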

Additional observations from a re-analysis of the deposited data

Results flagged for a closer look

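On 3 of 62 groups of 4 arrays tested, 1 array lay far from the other 3 on the log2 scale, by the gap to the nearest array over the range of the group against Dixon's critical value of 0.829. Chance alone marks about 1 group in 20. Lcn5 in SV gave 0.859, with SV replicate 1 at 1.00 and the others at 4.77 to 6.15. Lcn9 in ST gave 0.846, with ST replicate 3 at 24.0 and the others at 6.60 to 8.06. Serpina1f, a serpin of the epididymis, gave 0.922 in SV, with SV replicate 3 at 3.66 and the others at 23.3 to 27.3. All of these signals lay below the olfactory receptor level of their arrays.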

How the results depend on the processing

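Counts of called epididymal secretory genes in RT against ST rose from 0 to 1, Adam7 in each case, with log2(signal + 32), a floor of 32, replicates 1 and 2 against 3 and 4 as a block, replicates 1 and 2 alone and the mean of a gene's probe sets (fewer features tested), and ranged from 0 to 1 when 1 array was left out (1 without RT replicate 3 or without SV replicate 4). Replicates 1 and 2 alone, and the fit without RT replicate 3, leave out the low RT array of Adam7. The floor set Adam7 to 32 on every array but RT replicates 1 and 2. Such calls are therefore not separate support. In SV against ST the count rose to 1, Lcn9, by the methods' t-test without adjustment. In SV against RT 1 was called lower, Adam7, with log2(signal + 32) and with replicates 1 and 2 alone, and 0 to 1 with 1 array left out.

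Other epididymal genes called higher in RT (1) became 2 by the methods' t-test without adjustment, with 2 regions fitted alone and with no fold threshold, and 0 at a mean signal of at least 100 and with replicates 3 and 4 alone (0 to 2 with 1 array left out). Those called lower (1) became 2 with quantile normalization, median centring, a mean signal of at least 32, replicates 1 and 2 against 3 and 4 as a block and the mean of probe sets, and 0 with replicates 3 and 4 alone (1 to 3). In SV, 1 was called higher with no fold threshold. Efferent duct genes called higher in RT (11) became 5 with replicates 3 and 4 alone (10 to 12 with 1 array left out). In SV (4) they became 2 with a floor of 32 and 0 by the adjusted methods' t-test and with replicates 3 and 4 alone (3 to 4). Replicates 3 and 4 alone hold 1 RT array, assumed to vary like the other groups, and fewer arrays: over all probe sets, calls higher in RT fell there from 4607 to 1016 and those in SV from 675 to 0, while the adjusted methods' t-test called 69 in SV, so these counts say nothing about the lists themselves.

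Signs turned for small log2 fold changes. In RT against ST, Lcn8 became -0.23 and -0.29, Lcn9 -0.09 and -0.17, and Rnase10 -0.26 and -0.32 with quantile normalization and median centring. Lcn9 became -0.94 with replicates 3 and 4 alone, and Rnase10 -0.37 with replicates 1 and 2 alone. In SV against ST, Lcn5 became -0.02 with log2(signal + 32), Lcn8 -0.02 with replicates 3 and 4 alone, and Adam7 -0.02 with median centring. With 1 array left out, RT against ST ran from -0.33 to 1.81 for Lcn5, -0.12 to 0.33 for Lcn8, -0.36 to 0.67 for Lcn9 and -0.08 to 0.25 for Rnase10, and SV against ST from -0.23 to 0.80 for Lcn5 and -0.56 to 0.70 for Adam7. The cause of these turns was not tested. Lcn5 and Lcn9 dropped out at a mean signal of at least 32 and have no value there.

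The regions share replicate numbers. Deviations from the region means correlated at 0.069 to 0.19 between arrays of the same number (over 0.1 in 7 of 10 pairs). Between replicates 1 and 2 of different regions, or 3 and 4, the values were 0.07 to 0.178. Between replicates 1 or 2 and replicates 3 or 4 they were -0.179 to -0.076. No sample title joins replicates 1 and 2, or 3 and 4, into sets. Though 10 of 11 arrays correlated best with their own number, the samples were taken to share only a number. With replicates 1 and 2 against 3 and 4 as a block, Adam7 in RT against ST was 2.80 and passed (adjusted p = 0.0405, limma). With the replicate block, Adam7 was 2.41 and did not (adjusted p = 0.064), Rnase10 -0.02 in RT against ST, the epididymal secretory genes called stayed at 0, and the other epididymal genes called in RT were 2 higher and 2 lower.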

Other observations

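Svs5 and Svs6 are secretory genes of the seminal vesicle. Svs5 lay above the olfactory receptor level on all 11 arrays. Svs6 lay above it on every RT and SV array and on 2 of the 4 ST arrays. Svs6 gave 341, 370 and 437 in RT, 368, 355, 132 and 305 in SV, and 47.9 to 79.3 in ST, and was called higher in RT (log2 fold change 2.60) and in SV (2.10) against ST by limma. Svs5 gave 782, 1157 and 1176 in RT, 2199, 2201, 1025 and 2402 in SV, and 526 to 852 in ST. It was called higher in SV (1.43) but not in RT (0.57) against ST. Svs5 has 5 probe sets, and only the 1 with the highest mean signal is given here. Of 7 measured genes of the vas deferens and seminal vesicle, these were the ones called in either comparison. Over all probe sets, 10.2% were called higher in RT and 1.50% in SV against ST. Svs6 did not share the drop of Adam7 on RT replicate 3, which was its highest RT array.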
